A study of Mus musculus with 14 samples.

Results

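The immunoglobulin gene segments of the mouse were followed in RNA sequencing of regulatory T cells that had been sorted from spleen by their Foxp3 and YFP signals. They were chosen by annotation alone: every gene that the GENCODE annotation of the mouse build GRCm38 calls a variable (V), diversity (D), joining (J) or constant (C) immunoglobulin gene, without pseudogenes. Release M21 of the annotation holds 264 such genes, and 252 of them were among the 30284 genes in the tables. They were 214 of 218 V, 19 of 19 D, 9 of 14 J and 10 of 13 C genes. The J genes present were those of the heavy chain and kappa loci, so lambda J segments were not measured. The KO-labelled animals were Tln1fl/fl Foxp3cre/wt and their cells were labelled talin KO. The WT animals were Tln1wt/wt Foxp3cre/wt. All animals carried 1 Foxp3cre allele, so Cre was driven by Foxp3 in both groups, and all were of strain C57/B6. The sources used here give neither age nor sex. Each library came from 1 or 2 animals. The samples formed 3 KO-labelled units and 4 WT units, a unit being the 2 sequenced samples that share a first number in their titles.

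Antibodies are built from a pair of heavy chains and a pair of light chains. Developing B cells join a V, a D and a J segment at the heavy chain locus Igh, and a V and a J segment at the kappa locus Igk or the lambda locus Igl, and each joined segment is transcribed with a constant gene. Naive B cells make IgM and IgD from Ighm and Ighd, switched B cells make IgG, IgE or IgA, and plasma cells release large amounts of the secreted forms. T cells rearrange T cell receptor loci and make no antibody. In bulk RNA, more cells of a type and more RNA per cell cannot be told apart.

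The sequences below are those that the results on Ighm forms, V use and J use turn on, from GENCODE transcripts of build GRCm38, written 5′ to 3′. The secreted and membrane forms of Ighm differ in their ends, and the capitals mark the stop codon. The secreted end lies at chr12:113420867-113420928 on the minus strand. The membrane end lies on the same strand and is spliced from 116 bases at chr12:113418953-113419068 and 9 bases at chr12:113418826-113418834.
Ighm secreted end: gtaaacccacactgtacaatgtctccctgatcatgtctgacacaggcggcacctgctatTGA
Ighm membrane end: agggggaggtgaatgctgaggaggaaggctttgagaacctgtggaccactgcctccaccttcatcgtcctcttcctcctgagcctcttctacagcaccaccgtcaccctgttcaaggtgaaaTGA
The next 4 are the last 60 bases of the V segments that mark V use in these units, with the codon of the cysteine that ends the conserved framework in capitals. Igkv1-117 (chr6:68121768-68121827, plus strand) led the kappa reads of 6 units and Igkv5-39 (chr6:69900424-69900483, minus strand) those of the seventh. Igkv14-126 (chr6:67896583-67896642, plus strand) and Ighv11-2 (chr12:114048241-114048300, minus strand) are the kappa and heavy chain segments that mouse B-1 cells pair in antibodies against phosphatidylcholine.
Igkv1-117: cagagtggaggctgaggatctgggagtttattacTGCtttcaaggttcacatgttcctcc
Igkv5-39: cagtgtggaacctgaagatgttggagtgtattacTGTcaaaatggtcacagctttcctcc
Igkv14-126: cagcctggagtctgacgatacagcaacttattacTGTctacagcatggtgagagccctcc
Ighv11-2: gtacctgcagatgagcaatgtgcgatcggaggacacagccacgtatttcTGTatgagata
The 4 heavy chain J segments are shown because their use varied between KO-labelled units, with the codon of the conserved tryptophan in capitals. Each is 1 whole transcript. For Ighj2, which has 2 transcripts in the tables, only 1 is shown. They lie on the minus strand at chr12:113429781-113429833, chr12:113429468-113429515, chr12:113429085-113429132 and chr12:113428514-113428567.
Ighj1: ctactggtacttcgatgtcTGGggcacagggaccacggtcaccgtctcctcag
Ighj2: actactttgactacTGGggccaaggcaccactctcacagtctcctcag
Ighj3: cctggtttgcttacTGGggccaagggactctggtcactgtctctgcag
Ighj4: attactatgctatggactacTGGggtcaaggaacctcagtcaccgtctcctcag

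The units held 44524768, 38811489 and 56109143 estimated reads in genes in the KO-labelled units 1 to 3, and 12851425, 20863157, 39214264 and 13458684 in the WT units 1 to 4. Tln1, the floxed gene, was at 788, 901 and 1014 CPM (reads scaled by the TMM-adjusted library size) in the KO-labelled units and at 634, 543, 847 and 649 CPM in the WT units. The summed Tln1 level was thus not lower in the KO-labelled units (log2 fold change 0.43 ± 0.18 SE, adjusted p = 0.126 in edgeR's quasi-likelihood test), and the group names below are the labels'. Reads outside the deleted part of the gene do not check a label. Of 8 T cell and regulatory T cell markers, 0 rose and 3 fell (Il2ra, Ikzf2 and Cd3g). Among all tested genes 7.07% rose and 6.52% fell. None of the 8 rose at an unadjusted p under 0.05 or in the DESeq2 Wald test or limma-voom. Leaving out WT unit 2, 3 or 4 or KO-labelled unit 2 or 3 left 1 that fell. Foxp3 was at 370, 514 and 401 CPM in KO-labelled units and at 468, 324, 479 and 406 CPM in WT units (log2 fold change 0.03 ± 0.18).

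Immunoglobulin transcripts were about 10 times as abundant in the KO-labelled units as in the WT units, and this held for constant, V and J genes alike. The 252 genes together took 1.86%, 1.02% and 2.96% of all gene reads in the KO-labelled units. In the WT units they took 0.206%, 0.364%, 0.128% and 0.0574%. The lowest KO-labelled unit, at 10050 summed CPM, stood above the highest WT unit, at 3707 CPM, and the ratio of the group means was 10.1. That ratio was 10.7 for the constant genes, 8.73 for the V segments and 9.64 for the J segments. Summed plasma cell and B cell markers also stood higher in the KO-labelled units, and their part in the result was not tested. The 10 plasma cell markers summed to 982 to 2283 CPM in KO-labelled units and 201 to 510 CPM in WT units. Most of that sum in the KO-labelled units was Jchain, at 1469, 736 and 1898 CPM. The 16 B cell markers summed to 268 to 558 CPM in KO-labelled units and 83.0 to 164 CPM in WT units. Within the KO-labelled group the B cell sum did not follow the immunoglobulin level. It was lowest, at 268 CPM, in KO-labelled unit 3, which had the largest immunoglobulin share.

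Reads were found for 229 of the 252 genes, and 188 had enough for a test. The test was edgeR's quasi-likelihood test over all 15775 genes that passed its filter, with adjusted p-values (Benjamini-Hochberg) called at a false discovery rate of 0.05. Of the 188, 47 rose in the KO-labelled units and 0 fell, and 115 rose and 0 fell at an unadjusted p under 0.05. Among all tested genes 7.07% rose, 6.52% fell and 13.6% changed either way. Every KO-labelled unit was above every WT unit for 145 of the 188, against 16.7% of all tested genes. The log2 fold change was above 0 for 187 of the 188, against 54.2% of all tested genes, and its median was 3.58, against 0.06 for all tested genes. The median stays at 3.58 when the 11 tested genes with 0 WT reads are set at the fold that a floor of 3 reads over the WT group allows. The filter keeps a gene that is high in 1 group only, so these counts describe the genes that passed it and not all 252. The number of calls fell to 27 without WT unit 4, to 28 without KO-labelled unit 3 and to 31 without KO-labelled unit 1, with 0 lower in each. DESeq2 called 106 of 229 higher and limma-voom 74 of 188, again with 0 lower. Which genes passed was less stable than their number. Of the 47, DESeq2 called 46 and limma-voom 30, and the fits that left out 1 unit called 23 to 34.

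All 10 constant genes stood higher in every KO-labelled unit than in every WT unit, as did 16.7% of all tested genes. Of the 10, 3 passed the test. Ighm, the constant gene of IgM (chr12:113418558-113422730, minus strand), had 6166, 3339 and 8650 CPM in the KO-labelled units, against 668, 1248, 693 and 377 CPM in the WT units. It rose by 3.02 ± 0.46 (SE) on the log2 scale (adjusted p = 0.00827) and passed in each of the 7 fits that left out 1 unit. Iglc2, a lambda light chain constant gene (chr16:19198396-19200351, minus strand), had 439, 260 and 516 CPM in the KO-labelled units, against 41.1, 30.97, 23.97 and 8.46 CPM in the WT units. It rose by 3.95 ± 0.56 (adjusted p = 0.0121), also in each of the 7 fits. Iglc2 was the only lambda constant gene in the tables. Reads of near-identical lambda constant genes may be counted in it, and reads of less similar ones may be lost. Ighd, the constant gene of IgD, had 56.8, 48.5 and 17.0 CPM in the KO-labelled units, against 13.7, 6.50, 5.34 and 7.09 CPM in the WT units. It rose by 2.33 ± 0.49 (adjusted p = 0.0262), but it passed in only 3 of the 7 fits that left out 1 unit and not without WT unit 2, 3 or 4 or KO-labelled unit 2, with adjusted p between 0.0054 and 0.0839.

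**Figure D1:**
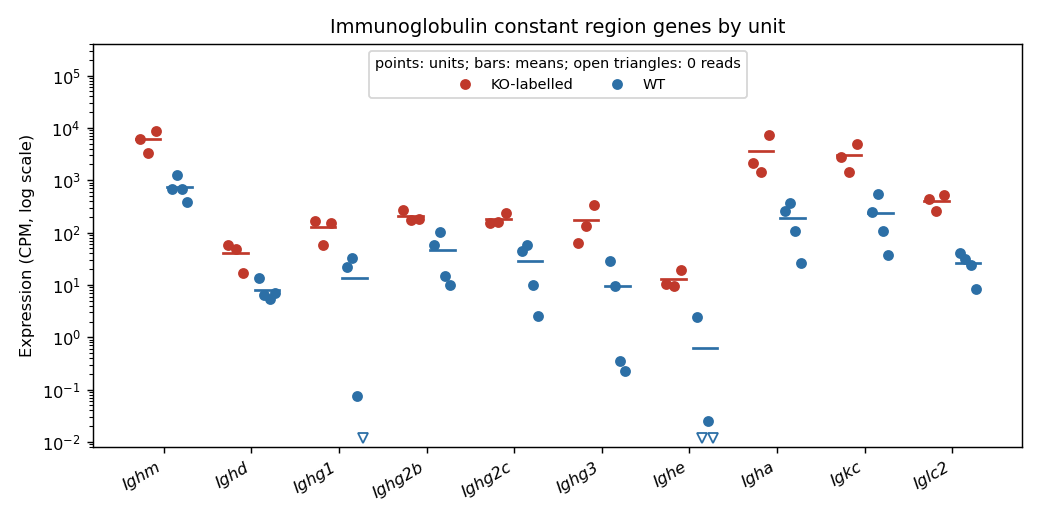
Expression of the 10 immunoglobulin constant genes in each unit, in CPM on a log axis, with KO-labelled units in red on the left of each pair and WT units in blue on the right; bars are means and open triangles mark units with 0 reads. For every gene the red points lie above the blue ones; Ighg1 is at 0 in WT unit 4 and Ighe in WT units 2 and 4.

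The other 7 constant genes had large differences and a wide spread between units. Igkc, the kappa constant gene (chr6:70726435-70726966, plus strand), had 2807, 1439 and 4995 CPM in the KO-labelled units, against 245, 556, 108 and 36.9 CPM in the WT units. Its log2 fold change of 3.70 ± 1.02 missed the threshold (adjusted p = 0.0687), and WT units 2 and 4 alone differed more than 10-fold. Igha, the constant gene of IgA, had 2141, 1408 and 7433 CPM in the KO-labelled units, against 256, 361, 106 and 26.5 CPM in the WT units (log2 fold change 4.29 ± 1.10, adjusted p = 0.0582). KO-labelled unit 3 stood above the other KO-labelled units for this gene. DESeq2's Wald test called both, with adjusted p = 0.000982 for Igkc and 8.79e-05 for Igha. It was the only 1 of 10 other settings of the processing to call either gene. Neither passed in any of the 7 fits that left out 1 unit.

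The 4 IgG genes and the IgE gene did not pass. Ighg2b had 275, 172 and 185 CPM in the KO-labelled units, against 56.8, 103, 15.01 and 9.83 CPM in the WT units (adjusted p = 0.153). Ighg2c had 151, 159 and 232 CPM in the KO-labelled units, against 44.9, 57.5, 9.91 and 2.51 CPM in the WT units (adjusted p = 0.141). These IgG genes split the WT units into a higher pair, units 1 and 2, and a lower pair, units 3 and 4. The split was wider for Ighg1, with 167, 57.0 and 152 CPM in the KO-labelled units, against 22.1, 33.0, 0.0749 and 0 CPM in the WT units (adjusted p = 0.266). Ighg3 had 63.9, 134 and 330 CPM in the KO-labelled units, against 28.4, 9.62, 0.350 and 0.229 CPM in the WT units (adjusted p = 0.14). Ighe had 10.3, 9.72 and 19.1 CPM in the KO-labelled units, against 2.44, 0, 0.0250 and 0 CPM in the WT units (adjusted p = 0.13). Without WT unit 1, which held nearly all WT reads of Ighe, its adjusted p was 0.000122.

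Set against each other by TPM, which corrects for transcript length, Ighm and Igha made up most of the heavy chain constant expression in every unit. Ighm held 60%, 53.9% and 41.8% of it in the KO-labelled units, against 51.3%, 59.8%, 77.3% and 85.1% in the WT units. Igha held 30.1%, 33.0% and 51.7% in the KO-labelled units, against 29.8%, 25.6%, 17.9% and 9.22% in the WT units. The groups overlapped for Ighm, with WT unit 4 the richest. For Igha they did not overlap, but the lowest KO-labelled unit and the highest WT unit were close, and KO-labelled unit 3 was the richest. By reads, the switched isotypes (IgG, IgE and IgA) held 38.9% ± 9.23 of heavy chain constant reads in the KO-labelled units and 23.4% ± 13.1 in the WT units (SD, n = 3 and 4). The difference of 15.4 percentage points was within the spread between units (exact two-sided permutation test over units, p = 0.229, adjusted p = 0.343 over 6 shares). Ighm held 60.6% ± 8.91 of those reads in the KO-labelled units and 75.6% ± 12.9 in the WT units, with the same p = 0.229 in the exact permutation test. Ighd held 0.546% ± 0.411 in the KO-labelled units and 0.982% ± 0.594 in the WT units (exact permutation p = 0.343). With 35 arrangements of the units the smallest p this exact test can give is 0.0571. The fewest heavy chain reads, 5555, were those of WT unit 4, where the 95% Wilson interval of the Ighm share ran from 88.2% to 89.9%. Intervals cover counting error only.

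**Figure D2:**
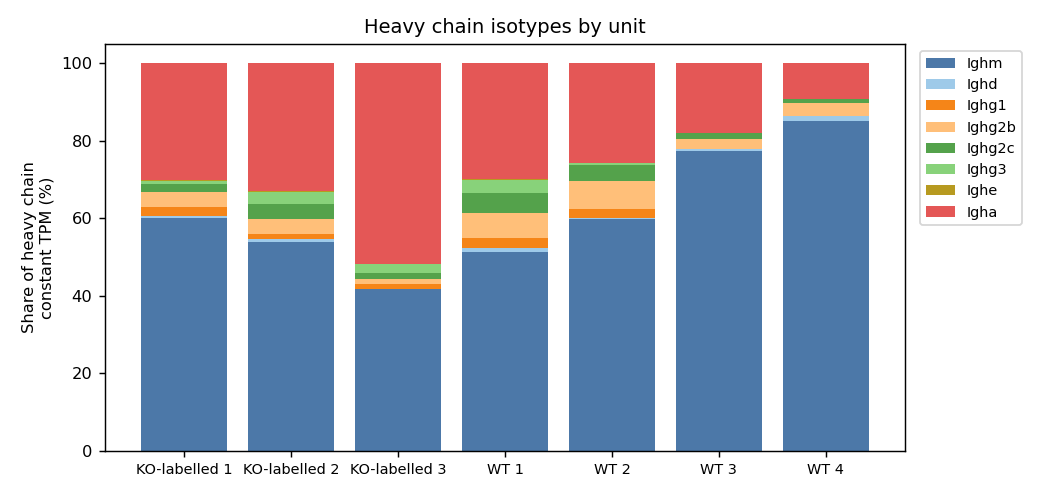
Share of heavy chain constant TPM held by each of 8 heavy chain constant genes, as stacked percentages for the KO-labelled units on the left and the WT units on the right. Igha ranges from 51.7% in KO-labelled unit 3 to 9.22% in WT unit 4, and the lowest KO-labelled unit, at 30.1%, lies just above the highest WT unit, at 29.8%.

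The form of Ighm separated the groups. In general the secreted form is made mainly by plasma cells, and the membrane form is the surface receptor of B cells. Bulk reads do not show which cells made the reads of either form. Secreted Ighm had 5716, 3011 and 8332 CPM in the KO-labelled units, against 399, 943, 437 and 175 CPM in the WT units, a ratio of means of 11.6. Membrane Ighm had 450, 329 and 318 CPM in the KO-labelled units, against 269, 305, 256 and 202 CPM in the WT units, a ratio of only 1.42. Neither form overlapped between the groups. The secreted form thus made up 92.7%, 90.2% and 96.3% of Ighm reads in the KO-labelled units, against 59.7%, 75.6%, 63.1% and 46.4% in the WT units. The difference of 31.9 percentage points had the smallest p that the exact two-sided permutation test over these units allows, 0.0571. This share was chosen after the values were seen, and it was estimated by kallisto from reads many of which can fit both forms. Its widest 95% Wilson interval, from 45.1% to 47.8%, was that of WT unit 4 with 4949 reads. The difference was 29.5 points when TPM replaced reads.

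**Figure D3:**
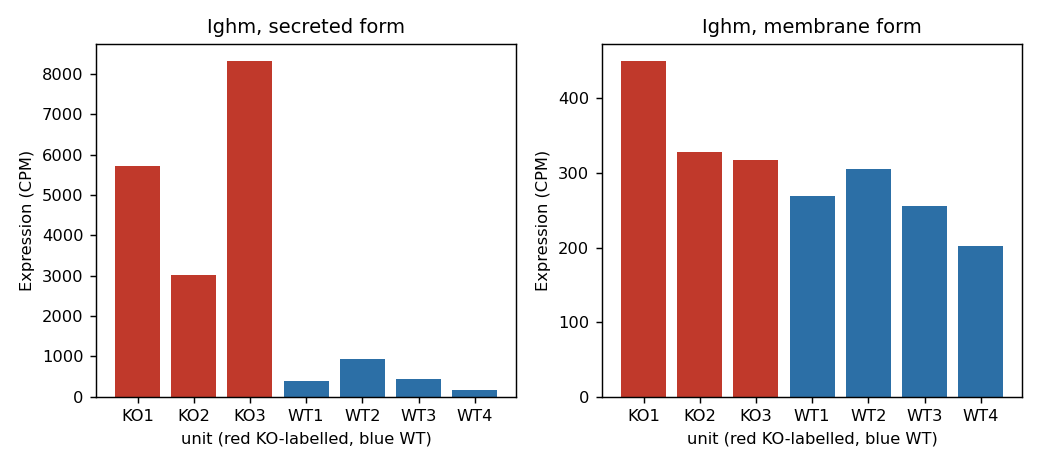
Expression in CPM of the secreted form (left panel) and the membrane form (right panel) of Ighm, 1 bar per unit, KO-labelled units in red and WT units in blue; each panel has its own axis from 0. The secreted form spans 3011 to 8332 CPM in KO-labelled units and 175 to 943 CPM in WT units, and the membrane form 318 to 450 CPM in KO-labelled units and 202 to 305 CPM in WT units.

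Membrane Ighm was set against the B cell gene Cd79a, whose protein carries the membrane antibody's signal. Cd79a had 64.4, 45.6 and 45.9 CPM in the KO-labelled units, against 6.92, 5.42, 4.22 and 2.82 CPM in the WT units. There were 6.99, 7.21 and 6.92 membrane Ighm reads per Cd79a read in the KO-labelled units, against 38.9, 56.2, 60.6 and 71.6 in the WT units. The groups did not overlap in this ratio, which was chosen after the values were seen and not tested. Against Ms4a1, another B cell gene, they overlapped, with 6.60, 7.62 and 17.15 membrane Ighm reads per Ms4a1 read in the KO-labelled units, against 13.1, 35.1, 74.3 and 20.7 in the WT units. Igha was almost all of the secreted form in both groups, at 99.4% to 99.7% in KO-labelled units and 99.1% to 99.9% in WT units. Ighd was mostly of the membrane form, at 52.2, 44.9 and 15.1 CPM in the KO-labelled units, against 12.8, 6.50, 4.58 and 7.09 CPM in the WT units.

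Kappa was the main light chain in every unit, as is usual in the mouse. It held 86.5%, 84.7% and 90.6% of light chain constant reads (Igkc and Iglc2) in the KO-labelled units, against 85.6%, 94.7%, 81.8% and 81.3% in the WT units. Reads of lambda constant genes other than Iglc2 may be missing from these shares, which would raise the share of kappa. The groups overlapped, and the difference of 1.39 percentage points was within their spread (exact two-sided permutation p = 0.743). Its sign turned without KO-labelled unit 3 (-0.29) and without WT unit 4 (-0.12). The V segments gave like shares: kappa held 85.3%, 84.4% and 87.97% of light chain V reads in the KO-labelled units, against 87.8%, 95.8%, 85.4% and 86.8% in the WT units. WT unit 2 was the richest in kappa on both counts. The Igkc transcript is shorter than that of Iglc2 (323 against 606 bases). By TPM kappa held 94.8% to 97.0% of light chain constant expression in KO-labelled units and 93.5% to 98.3% in WT units. The least precise constant share, with 595 reads in WT unit 4, had a 95% Wilson interval from 78.02% to 84.3%.

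The lambda locus of the mouse has few V segments, and all 3 were measured. Iglv1 had 287, 141 and 271 CPM in the KO-labelled units, against 19.7, 20.8, 7.59 and 7.01 CPM in the WT units. It rose by 4.09 ± 0.53 on the log2 scale (adjusted p = 0.00979), and in each of the 7 fits without 1 unit. Iglv3 had 65.7, 27 and 65.5 CPM in the KO-labelled units, against 5.66, 0.635, 0.350 and 1.22 CPM in the WT units (log2 fold change 4.86 ± 1.06, adjusted p = 0.0411), and it passed in 1 of the 7 fits, that without WT unit 1. Iglv2 had 155, 94.1 and 143 CPM in the KO-labelled units, against 24.2, 13.4, 15.7 and 0.838 CPM in the WT units, and its log2 fold change of 3.27 ± 0.88 did not pass (adjusted p = 0.0657). Iglv1 held 56.6%, 53.8% and 56.5% of lambda V reads in the KO-labelled units, against 39.8%, 59.7%, 32.2% and 77.2% in the WT units, where 119 to 945 reads stood behind each share. The KO-labelled units resembled each other in this mix and the WT units ranged widely on either side of them.

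Of the 214 V segments, 169 were tested and 40 rose, of which 25 were heavy chain segments (89 tested), 13 kappa segments (77 tested) and 2 lambda segments (3 tested). Their sequences are alike: 154 of the 214 shared over 25% of their 31-base words with another gene, so the reads of single segments are uncertain. Of those 154, 130 were tested and 32 rose. Of the 60 that shared less, 39 were tested and 8 rose. The called V segments had a median of 15.9 CPM in the KO-labelled units and the tested ones that were not called a median of 18.4 CPM. There were 12, 28 and 8 V segments with 0 reads in KO-labelled units 1 to 3, which had more V reads, against 62, 99, 102 and 129 in WT units 1 to 4.

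The largest rises were in segments with no or almost no WT reads, for which the fold is a bound. Ighv9-4 had 9.16, 2.25 and 13.5 CPM in the KO-labelled units and 0 reads in all WT units, which makes it at least 261-fold higher against a floor of 3 reads over the WT group (adjusted p = 0.0109). Igkv3-1 had 9.70, 1.35 and 10.2 CPM in the KO-labelled units and 0 reads in the WT units (at least 221-fold higher, adjusted p = 0.0214). Ighv1-20 had 3.47, 4.24 and 4.60 CPM in the KO-labelled units and 0 reads in the WT units (at least 120-fold higher, adjusted p = 0.000998). These segments are minor ones, each at most 0.599% of the V reads of its locus in a KO-labelled unit. Ighv1-4 had 6.79, 3.09 and 45.8 CPM in the KO-labelled units and 1 read in the WT units, in unit 1 (adjusted p = 0.0161), a ratio of pooled reads of 1870 with an exact counting interval from 335 to 73800. Its level in KO-labelled unit 3 stood well above the other KO-labelled units. It lost its call without WT unit 1, 2 or 4, with adjusted p up to 0.144, and Igkv3-1 without KO-labelled unit 1 or 3, with adjusted p up to 0.0752. All 4 share between 29.6% and 54.9% of their words with other genes, so a 0 may also be reads that were assigned elsewhere. In all, 7 of the 47 called genes had 0 WT reads.

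Igkv1-117 led the kappa reads of 6 of the 7 units, being the largest kappa segment in all 3 KO-labelled units and in 3 of 4 WT units. It held 9.12%, 6.75% and 9.50% of kappa V reads in the KO-labelled units, against 12.7%, 11.8%, 12.3% and 18.2% in the WT units. Its level was 269, 96.0 and 333 CPM in the KO-labelled units, against 45.5, 94.1, 16.9 and 10.8 CPM in the WT units, which did not pass (log2 fold change 2.48 ± 0.89, adjusted p = 0.124). Igkv1-110 had 239, 82.8 and 238 CPM in the KO-labelled units, against 25.5, 48.4, 13.2 and 7.62 CPM in the WT units (adjusted p = 0.0567). Igkv1-117 and Igkv1-110 share over 60% of their words with other genes (62.6% and 63.6%), so reads may move between family members. Igkv10-96 had 148, 78.95 and 182 CPM in the KO-labelled units, against 18.2, 24.9, 5.19 and 6.10 CPM in the WT units, and rose by 3.33 ± 0.69 (adjusted p = 0.035, passing in 2 of the 7 fits, those without WT unit 2 or 3). Igkv1-135 was uneven in WT units, at 186, 66.4 and 111 CPM in the KO-labelled units, against 13.8, 0.733, 14.6 and 0.914 CPM in the WT units (adjusted p = 0.0815).

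Igkv5-39 was the exception among all tested immunoglobulin genes. It had 23.6, 17.9 and 45.8 CPM in the KO-labelled units, against 20.4, 219, 13.8 and 3.28 CPM in the WT units. It held 0.800%, 1.26% and 1.31% of kappa V reads in the KO-labelled units, against 5.73%, 27.4%, 10.04% and 5.50% in the WT units, so every WT unit used it more than any KO-labelled unit did. Its log2 fold change of -1.14 ± 1.47 was the only one below 0 and did not pass (adjusted p = 0.644). It was 1.22 without WT unit 2, where the segment was the largest of all. Igkv5-39 shares 19.5% of its words with other genes.

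The pair known from B-1 cells was prominent in both groups. Igkv14-126, which shares only 5.8% of its words, had 193, 87.4 and 240 CPM in the KO-labelled units, against 7.87, 54.4, 11.6 and 3.35 CPM in the WT units (log2 fold change 3.15 ± 1.03, adjusted p = 0.104). It held 6.54%, 6.14% and 6.86% of kappa V reads in the KO-labelled units, against 2.21%, 6.82%, 8.45% and 5.63% in the WT units. Ighv11-2 had 88.4, 39.0 and 86.7 CPM in the KO-labelled units, against 5.27, 24.5, 8.84 and 2.44 CPM in the WT units (log2 fold change 2.78 ± 0.81, adjusted p = 0.0784). It held 4.14%, 3.58% and 3.84% of heavy chain V reads in the KO-labelled units, against 2.20%, 6.52%, 8.29% and 5.73% in the WT units. Averaged over the 7 units it was the largest heavy chain segment, at 4.90%. The shares of both segments kept within a narrow range in the KO-labelled units, which lay inside the range of the WT units. Bulk reads do not show whether the segments were paired in the same cells.

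No heavy chain segment led in most units. Ighv1-26 was the largest in KO-labelled units 1 and 2 and Ighv9-3 in unit 3, while Ighv4-1, Ighv5-4, Ighv7-3 and Ighv1-82 led in WT units 1 to 4 in that order. Ighv1-26 had 90.7, 63.3 and 38.7 CPM in the KO-labelled units, against 10.6, 17.8, 0.924 and 2.36 CPM in the WT units (adjusted p = 0.113). Ighv4-1 had 74.2, 46.9 and 48.6 CPM in the KO-labelled units, against 12.4, 15.1, 2.37 and 2.67 CPM in the WT units (adjusted p = 0.0647). Of these leaders only Ighv1-82 passed the test. It had 41.3, 17.4 and 25.5 CPM in the KO-labelled units, against 2.52, 5.03, 0.924 and 4.27 CPM in the WT units, and rose by 3.16 ± 0.58 (adjusted p = 0.0176, passing in 5 of the 7 fits and not without WT unit 4 or KO-labelled unit 3). Ighv7-3, at 82.6, 36.9 and 50.9 CPM in the KO-labelled units, against 7.79, 3.47, 12.5 and 0.533 CPM in the WT units, had an adjusted p = 0.0725. Ighv6-6 and Ighv6-3, the other segments among the 6 largest on average, had adjusted p of 0.129 and 0.277. Ighv9-3 and Ighv5-4 were both highest in WT unit 2 among WT units, with Ighv5-4 at 10.3, 13.2 and 19.3 CPM in the KO-labelled units, against 3.15, 29.4, 0 and 0 CPM in the WT units (adjusted p = 0.815). By family, the 53 segments of Ighv family 1 held 44.7%, 46.6% and 35.6% of heavy chain V reads in the KO-labelled units, against 46.2%, 44.9%, 49.3% and 49.3% in the WT units.

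V use was least even in WT units 2 to 4. The largest kappa segment of a unit held 9.12%, 6.75% and 9.50% of kappa V reads in the KO-labelled units, against 12.7%, 27.4%, 12.3% and 18.2% in the WT units. The groups did not overlap and differed by -9.19 percentage points, with the smallest p the exact two-sided permutation test allows (p = 0.0571, adjusted p = 0.343 over 6 shares). Without WT unit 2 the difference was -5.95 points. The largest heavy chain segment held 4.25%, 5.80% and 4.42% in the KO-labelled units, against 5.20%, 7.83%, 11.7% and 10.03% in the WT units, and here the groups overlapped (difference -3.87 points, exact permutation p = 0.114). It took 11, 12 and 13 kappa segments to reach 50% of kappa V reads in the KO-labelled units, against 11, 4, 5 and 5 in the WT units. For the heavy chain it took 17, 16 and 19 segments in the KO-labelled units, against 15, 10, 8 and 8 in the WT units. WT unit 1 thus lay next to the KO-labelled units and the other WT units lay apart.

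**Figure D4:**
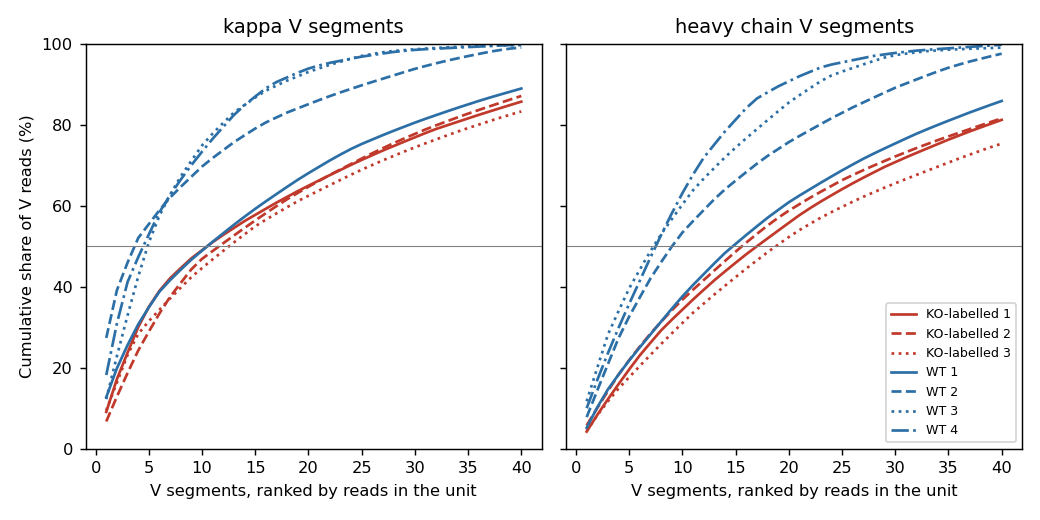
Cumulative share of V reads (%) against the rank of the V segment within each unit, for kappa segments (left) and heavy chain segments (right), with KO-labelled units in red and WT units in blue; the grey line marks 50%. The curves of WT units 2 to 4 climb fastest, reaching 50% with 4 to 5 kappa and 8 to 10 heavy chain segments, while WT unit 1 runs close to the KO-labelled units.

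The number of reads behind these shares moved with the groups. There were 133381, 55742 and 197823 kappa V reads in the KO-labelled units, against 4533, 16343, 5512 and 782 in the WT units. There were 96507, 42805 and 127431 heavy chain V reads in the KO-labelled units, against 3040, 7686, 4268 and 558 in the WT units. The part of read number in the evenness of V use was not tested. In WT unit 4 the 95% Wilson interval ran from 15.6% to 21.01% for the largest kappa share and from 7.81% to 12.8% for the largest heavy chain share. Across the 98 kappa segments, the shares of pairs of units correlated at 0.88 to 0.93 (Pearson) within the KO-labelled group, at 0.54 to 0.82 within the WT group and at 0.40 to 0.80 between the groups. Across the 113 heavy chain segments the values were 0.64 to 0.82 within the KO-labelled group, 0.22 to 0.53 within the WT group and 0.32 to 0.71 between the groups. The KO-labelled units thus resembled each other more than the WT units did. These correlations are across segments, which share sequence and are not independent replicates.

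All 9 J segments in the tables, 4 of the heavy chain locus and 5 of the kappa locus, had reads. Of the 9, 4 rose: Ighj1, Ighj3, Ighj4 and Igkj1. Ighj4 had 61.1, 32.4 and 116 CPM in the KO-labelled units, against 9.12, 8.30, 2.42 and 1.07 CPM in the WT units (log2 fold change 3.75 ± 0.86, adjusted p = 0.0451). Igkj1 had 44.9, 21.7 and 72.5 CPM in the KO-labelled units, against 3.30, 6.59, 1.67 and 0.305 CPM in the WT units (log2 fold change 3.95 ± 0.93, adjusted p = 0.047). These calls were close to the threshold: Ighj3, Ighj4 and Igkj1 passed in none of the 7 fits without 1 unit, with adjusted p from 0.0503 to 0.137, and Ighj1 passed in 1, that without WT unit 2. Ighj2 had an adjusted p of 0.0591 and the other kappa J segments adjusted p between 0.052 and 0.22.

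Use of the heavy chain J segments set 1 KO-labelled unit apart. Ighj1 held 26.9% and 25.7% of heavy chain J reads in KO-labelled units 1 and 2 but 6.26% in unit 3 (95% Wilson interval 5.92% to 6.62%, 18773 reads). It held 19.2%, 23.3%, 21.6% and 31.9% in the WT units. In KO-labelled unit 3 Ighj3 and Ighj4 held more than in any other unit, with Ighj3 at 12.3%, 16.8% and 23.7% in the KO-labelled units, against 18.1%, 15.7%, 19.8% and 15.3% in the WT units, and Ighj4 at 27.1%, 22.8% and 34.8% in the KO-labelled units, against 26.9%, 18.6%, 19.2% and 19.4% in the WT units. Ighj2 held the largest share in each unit, at 33.7% to 35.2% in KO-labelled units and 33.3% to 42.4% in WT units. Its 95% Wilson interval overlapped that of Ighj4 in KO-labelled unit 3 (34.5% to 35.9% against 34.1% to 35.5%). In WT unit 4 it led Ighj1 by 24 reads against 23. The reads of Ighj2 are those of 2 transcripts, and those of the other heavy chain J segments of 1 each. WT unit 4 had only 72 heavy chain and 40 kappa J reads, so its shares carry wide intervals (22.3% to 43.4% for Ighj1). Igkj1 held 25.2%, 20.6% and 23.9% of kappa J reads in the KO-labelled units, against 16.5%, 13.6%, 17.4% and 10% in the WT units, and the groups did not overlap. No other J share separated the groups, and this one was picked after the values were seen and not tested. Its 95% Wilson intervals did overlap, with 19.4% to 21.9% in KO-labelled unit 2 and 12.4% to 21.5% in WT unit 1. Igkj3, which cannot be spliced to the constant gene in the mouse, held at most 1.51% in any unit. The 19 D segments are 10 to 29 bases long, shorter than the 31-base words by which shared sequence was measured here, and none had a read, so D use was not measured.

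Genes that work with the antibodies were read from lists. Their counts, and those of the marker lists below, stand against 7.07% rising and 6.52% falling among all tested genes. Of 14 B cell receptor partners and signalling genes, 10 rose and 0 fell (12 and 0 at an unadjusted p under 0.05; 0 fell in the DESeq2 Wald test and limma-voom). Cd79a rose by 3.43 ± 0.28 on the log2 scale (adjusted p = 0.000262). Cd79b, its partner chain, had 51.0, 30.9 and 24.3 CPM in the KO-labelled units, against 10.9, 15.3, 11.4 and 8.30 CPM in the WT units, and rose by 1.62 ± 0.28 (adjusted p = 0.00792). Blnk, an adaptor of B cell receptor signalling, rose by 2.46 ± 0.28 (adjusted p = 0.00108), and the kinase gene Blk by 3.22 ± 0.46 (adjusted p = 0.00442). Without WT unit 2 or WT unit 4 the count was 6.

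Of 8 genes of antibody assembly and secretion, 4 rose (Derl3, Mzb1, Xbp1 and Ell2) and 0 fell. At an unadjusted p under 0.05 the counts were 6 and 0, in the DESeq2 Wald test 6 and 0, and in limma-voom 3 and 0. Mzb1, a chaperone of IgM assembly, had 33.5, 16.3 and 34.3 CPM in the KO-labelled units, against 2.60, 4.59, 1.77 and 1.37 CPM in the WT units (log2 fold change 3.44 ± 0.44, adjusted p = 0.00339). Jchain, whose protein joins IgM and IgA into polymers, had 1469, 736 and 1898 CPM in the KO-labelled units, against 201, 328, 63.4 and 29.7 CPM in the WT units (log2 fold change 3.14 ± 0.91, adjusted p = 0.0776). There were 1.91, 1.96 and 2.63 Igkc reads per Jchain read in the KO-labelled units, against 1.22, 1.70, 1.70 and 1.24 in the WT units. For Igha these values were 1.46, 1.91 and 3.92 in the KO-labelled units, against 1.27, 1.10, 1.68 and 0.892 in the WT units.

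Of 10 transcription factor genes of the immunoglobulin loci, 7 rose and 1 fell. Pou2af1, a coactivator of immunoglobulin promoters, had 52.4, 35.9 and 52.4 CPM in the KO-labelled units, against 14.7, 16.8, 9.02 and 10.7 CPM in the WT units (log2 fold change 1.88 ± 0.24, adjusted p = 0.00175). Ebf1, a factor of B cell identity, rose by 2.07 ± 0.37 (adjusted p = 0.00866). Pou2f2, which encodes an octamer-binding factor, fell by 0.75 ± 0.17 on the log2 scale (adjusted p = 0.0196), with 118, 142 and 112 CPM in the KO-labelled units, against 251, 165, 193 and 224 CPM in the WT units. Without WT unit 2 or 4, 3 of these genes rose, and without KO-labelled unit 2 or 3, 4 rose; the fall of Pou2f2 was lost without WT unit 4 and without KO-labelled unit 3.

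Of 10 genes of recombination and class switching, 9 were tested and 0 rose or fell. Of the 9, 1 rose and 0 fell at an unadjusted p under 0.05, limma-voom called 0, and the DESeq2 Wald test called 2 of 10 higher. Of the 4 surrogate light chain genes of B cell precursors only Vpreb3 was tested, and it did not pass (adjusted p = 0.0713); Igll1 and Vpreb2 had 0 reads in all WT units and at most 0.124 CPM in a KO-labelled unit. Of 11 immunoglobulin receptor genes, 4 rose (Fcer1a, Fcmr, Fcgrt and Fcgr2b) and 1 fell (Trim21). Fcmr, the IgM receptor gene, had 24.5, 18.4 and 10.1 CPM in the KO-labelled units, against 6.45, 3.62, 1.498 and 3.50 CPM in the WT units (log2 fold change 2.24 ± 0.47, adjusted p = 0.0191). Without WT unit 2 or 4, 1 receptor gene rose, without WT unit 3 or KO-labelled unit 2 or 3, 2 rose, and without WT unit 1, 7 rose. The fall of Trim21 did not pass in any of the 7 fits that left out 1 unit.

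Of the 16 B cell markers 10 rose and 0 fell (14 and 0 at an unadjusted p under 0.05; 0 fell in the DESeq2 Wald test and limma-voom). Ms4a1, which encodes CD20, overlapped between the groups (68.2, 43.1 and 18.5 CPM in the KO-labelled units, against 20.5, 8.70, 3.45 and 9.75 CPM in the WT units, adjusted p = 0.104). Of the 10 plasma cell markers 6 rose and 0 fell (9 and 0 at an unadjusted p under 0.05; 0 fell in the DESeq2 Wald test and limma-voom). Sdc1, which encodes the plasma cell marker CD138, had 11.5, 6.30 and 21.5 CPM in the KO-labelled units, against 0.865, 1.03, 1.57 and 0.610 CPM in the WT units (log2 fold change 3.64 ± 0.47, adjusted p = 0.00189). Without WT unit 2, WT unit 4 or KO-labelled unit 2 the count of B cell markers was 6, and without KO-labelled unit 3 the count of plasma cell markers was 4. KO-labelled unit 3, highest in Igha and Sdc1, was the lowest KO-labelled unit for Ighd and Ms4a1. The defining B cell markers Cd79a and Ms4a1 had reads in every WT unit.

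Of 6 germinal centre B cell markers 0 rose and 0 fell (1 rose at an unadjusted p under 0.05; limma-voom and the DESeq2 Wald test called 0), with a summed level of 39.9 to 51.0 CPM in KO-labelled units and 47.3 to 54.9 CPM in WT units. Of 6 B cell precursor markers 2 were tested and 0 changed (1 rose at an unadjusted p under 0.05; limma-voom called 0 and the DESeq2 Wald test 2 of 6). Of 8 myeloid markers 6 rose and 0 fell, with a summed level of 333 to 1658 CPM in KO-labelled units and 9.28 to 91.4 CPM in WT units; leaving out 1 unit gave counts from 0 (without WT unit 4) to 4 (without WT unit 1), and at an unadjusted p under 0.05 the count without WT unit 4 was 7. Of 5 erythroid markers 0 changed (4 rose at an unadjusted p under 0.05, limma-voom called 0 and the DESeq2 Wald test 2 of 5), but KO-labelled unit 3 stood apart with 1802 CPM, against 38.9 and 149 CPM in the other KO-labelled units and 1.92 to 24.8 CPM in the WT units. Of 5 dendritic cell markers 2 rose, and of 6 cytotoxic lymphocyte markers 3 rose, with 0 lower in both. Among all tested genes 7.07% rose and 6.52% fell. Without KO-labelled unit 3, 28 immunoglobulin genes rose and 0 fell.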

How the data were processed

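Messenger RNA of 14 samples was read from abundance tables that kallisto made on build GRCm38 according to the submitters' processing notes; the sources used here give neither its version nor the annotation release. The estimated counts (expected counts per transcript) and TPM were deposited as kallisto wrote them, per the file headers, and the library kit kept no strand, per the labels' protocols. Of 88198 transcripts, 2079 matched no gene of GENCODE M21 and were left out (1.17% to 1.28% of reads). Estimated counts were summed over genes and over the 2 samples of a unit and rounded to whole numbers. The samples of a unit were nearly alike (chi-square per degree of freedom 1.45 to 1.88, against 12.0 to 188 between units of a group), so they were counted once; no label ties units to animals, and p-values measure the spread between units, which may be partly technical. V, D and J segments join in each B cell, so a read across a junction may fit no reference transcript.

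The gene tests were those of edgeR 4.0.16, run in R 4.3.3 (TMM, filterByExpr, robust quasi-likelihood fit, group only, Benjamini-Hochberg adjustment at 0.05 over all tested genes), checked on simulated counts. Alternatives used DESeq2 1.42.0 and limma 3.58.1 (voom). Standard errors were derived from the F statistic. Shares were tested by exact permutation over units (SciPy 1.17.1). Shared sequence is given as the part of the 31-base words of a gene, in percent, that another gene of GENCODE M21 also holds, whose transcript lengths differ from the deposited ones for some genes. The members and lists were chosen with earlier results of these data known. Named were all constant genes with a read, the 6 largest V segments per locus on average, the largest of each unit, the 4 largest called rises with a mean of at least 1 CPM, list members by adjusted p (at most 4 per list) and Cd79a, Ms4a1, Jchain, Cd3e and Foxp3; not all are described. J segments, Ighd forms and Vpreb3, Igll1, Vpreb2, Tln1 and Trim21 are named outside that rule, after their values were seen.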

Additional observations from a re-analysis of the deposited data

Results flagged for a closer look

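In 8 of 53 levels examined, 1 of the 4 WT units stood apart from the rest by Dixon's test at the 95% level. Chance gives this in about 1 of 20 groups of unselected, normally distributed values, which these were not. Ighv5-4 was named for being the largest heavy chain V segment of WT unit 2, and some levels below are near 0. The 8 are thus a description and were not compared with that rate. WT unit 2 stood apart in 5. It had 219 CPM of Igkv5-39, against at most 20.4 CPM in the other WT units. It had 54.4 CPM of Igkv14-126, against at most 11.6 CPM, and 29.4 CPM of Ighv5-4, against at most 3.15 CPM. It had 17.5 CPM of Ighv9-3, against at most 2.91 CPM, and 0.733 CPM of Igkj3, against at most 0.0787 CPM. WT unit 1 stood apart in the other 3, with 5.66 CPM of Iglv3, against at most 1.22 CPM in the other WT units, with 2.44 CPM of Ighe, against at most 0.0250 CPM, and with 0.0787 CPM of Ighv1-4, a single read, against 0.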

How the results depend on the processing

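The count of immunoglobulin genes that rose was 47 and stayed within 1.5 times of that under DESeq2 size factors, upper-quartile scaling, library-size scaling, TMM without the immunoglobulin genes, no filter, a filter of 1 CPM in 3 units and the first sample of each unit. It was 106 in the DESeq2 Wald test and 74 in limma-voom, and 27 to 59 when 1 unit was left out. In each of these fits 0 fell. Of the 47 genes themselves, limma-voom called 30, and the fits without 1 unit called 23 to 34. For all genes the count of 2144 became 3582 in the DESeq2 Wald test and 758 to 1905 when 1 unit was left out. The cause was not tested. The log2 fold change of Igkv5-39 was 0.26 in limma-voom and -1.63 to 1.22 when 1 unit was left out, and that of Foxp3 -0.12 to 0.12. The kappa share difference ran from -0.29 to 4.34 points when 1 unit was left out. Without 1 unit no permutation p of a share can be below 0.1. The median log2 fold change of all tested genes was 0.137 with no filter.

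Units of the same number did not deviate together (correlations 0.03, -0.12 and -0.05 for numbers 1 to 3), so the numbers were not taken as pairs. With the number as a replicate block, 39 immunoglobulin genes rose, 28 of them also among the 47, and 612 of all genes changed. With that replicate block the kappa share difference was -0.12 points.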
